A study of Mus musculus with 2 samples.

Results

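Immediate early response genes are the genes that a cell transcribes within minutes of a growth factor, cytokine or stress signal, from transcription factors that are already present. Their levels are described here in myeloid cells grown from mouse bone marrow progenitors in which the CpG-binding protein Cxxc5 had been knocked down, and in the matching control cells. The set holds 10 genes, Jun, Junb, Jund, Fos, Fosb, Atf3, Egr1, Ier2, Dusp1 and Zfp36, taken by symbol from the gene rows of both count matrices. All 10 were found, once each, among 28692 rows. Every gene in the set is protein coding.

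The study compared 2 groups of C57BL/6 bone marrow cells enriched for stem and progenitor cells from 5 mice. The Cxxc5 knockdown group received a retroviral short hairpin RNA (shRNA) that targets Cxxc5, and the control shRNA group a retrovirus whose hairpin matches no mouse gene. Infected LSK cells (lineage-negative, Sca-1-positive, Kit-positive, a fraction rich in blood stem and multipotent progenitor cells) were sorted by the viral GFP and grown for 3 days in medium with 20% serum, 10 ng/ml of GM-CSF and 10 ng/ml of SCF, so that both groups carry a virus, a hairpin and GFP and both sit in growth factors that can themselves induce these genes. In each group 5 samples were pooled into 1 droplet library, so there is no replicate: intervals below are 95% intervals that cover counting error only, and no p-value is given.

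The Cxxc5 knockdown library held 6004 cells after filtering with a median of 10599 unique molecular identifiers (UMIs, 1 per captured transcript molecule), and the control shRNA library 2912 cells with a median of 17197. Cxxc5 itself had 73 UMIs, or 1.16 counts per 1000000 UMIs (CPM), in the knockdown library, against 462 UMIs, or 9.38 CPM, in the control library. Cells were sorted into gates by the summed UMIs of fixed marker genes, none of them in the set. The late neutrophil gate held 508 knockdown and 350 control cells, and the early neutrophil gate 804 knockdown and 462 control cells. The monocyte-macrophage gate held 464 knockdown and 359 control cells, and the dendritic cell gate 63 knockdown and 65 control cells. The mast cell and basophil gate held 421 knockdown and 201 control cells, and the protease-high progenitor gate 2533 knockdown and 961 control cells. A further 1162 knockdown and 489 control cells fell in no gate, and 49 knockdown and 25 control cells in several. Markers of the sorted stem and multipotent progenitor cells were sparse by day 3, at 0.066 to 2.73 UMIs per 10000 in the knockdown gates and 0.081 to 2.98 in the control gates, and the protease-high cells are named by their rule because no granulocyte-monocyte progenitor marker was among their 10 leading genes by fold. Granulocyte-monocyte progenitor markers were at 241.0 UMIs per 10000 in knockdown and 237.5 in control protease-high cells. The early neutrophil gate had more of them, at 326.0 in knockdown and 310.8 in control cells. The libraries shared 26 cell barcodes, and the median mitochondrial share was 3.98% in knockdown and 3.92% in control cells. The sources used here do not say whether the same mice gave both pools.

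The set has a simple internal logic. Jun, Junb and Jund encode the Jun proteins, and Fos and Fosb the Fos proteins. A Jun protein pairs with a Fos, Jun or ATF protein to form AP-1, a dimer that binds DNA and drives growth, differentiation and inflammatory genes, and Atf3 is a stress-induced partner that often represses. Egr1 is a zinc-finger factor induced by serum response factor, and it takes part in the choice between monocyte and granulocyte fates. Ier2 is a small nuclear protein induced with the others. Dusp1 and Zfp36 close the loop: Dusp1 is a phosphatase that switches off p38 and JNK, the kinases that feed AP-1, and Zfp36 (tristetraprolin) binds AU-rich elements and speeds the decay of inflammatory mRNAs. Their mRNAs are short lived and also rise when cells are handled, so a level is a snapshot of the cells at collection.

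The signals that start these genes end at a few short DNA motifs near the transcription start. Promoter windows of 250 bases before the RefSeq start (GRCm38.p6) were found for 8 of the 10 genes, all except Egr1 and Ier2. Those of Jun, Fos, Dusp1 and Zfp36 are shown because Jun had the lowest knockdown to control ratio of the set, Fos and Zfp36 had nearly the same ratio and were both highest in the most mature neutrophils of the neutrophil gates, and Dusp1 is the other feedback gene. The windows are chr4:95052223-95052472 on the minus strand for Jun, chr12:85473640-85473889 on the plus strand for Fos, chr17:26508473-26508722 on the minus strand for Dusp1 and chr7:28379229-28379478 on the minus strand for Zfp36. Each is written 5′ to 3′ on the strand of its gene, ending at the base before the start, with every motif match in capitals.
Jun: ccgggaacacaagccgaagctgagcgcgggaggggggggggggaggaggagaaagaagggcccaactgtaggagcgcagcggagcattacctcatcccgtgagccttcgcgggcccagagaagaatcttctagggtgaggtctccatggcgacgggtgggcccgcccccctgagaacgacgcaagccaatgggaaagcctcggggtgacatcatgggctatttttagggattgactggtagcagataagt
Fos: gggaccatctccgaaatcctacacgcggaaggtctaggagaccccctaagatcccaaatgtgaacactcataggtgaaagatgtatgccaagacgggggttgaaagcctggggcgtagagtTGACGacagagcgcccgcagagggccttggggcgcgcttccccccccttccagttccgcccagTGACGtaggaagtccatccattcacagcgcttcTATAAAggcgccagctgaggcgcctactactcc
Dusp1: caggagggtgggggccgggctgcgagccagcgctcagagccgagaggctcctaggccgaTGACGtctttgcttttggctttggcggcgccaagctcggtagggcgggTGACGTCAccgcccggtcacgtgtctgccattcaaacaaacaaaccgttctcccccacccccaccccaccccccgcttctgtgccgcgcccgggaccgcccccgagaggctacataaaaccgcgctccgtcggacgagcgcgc
Zfp36: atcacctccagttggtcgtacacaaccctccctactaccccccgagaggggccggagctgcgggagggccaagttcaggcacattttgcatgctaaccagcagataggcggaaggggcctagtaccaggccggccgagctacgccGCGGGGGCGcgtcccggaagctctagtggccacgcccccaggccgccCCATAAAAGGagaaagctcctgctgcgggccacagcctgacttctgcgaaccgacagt
Motifs were searched on both strands: the CArG box, which serum response factor binds, the cyclic AMP response element TGACGTCA and its core TGACG, which overlap, the AP-1 motif TGANTCA, the EGR motif GCGNGGGCG and the TATA motif TATAAA. The Fos window held TGACG 129 and 66 bases before the start and TATAAA 33 bases before it. The Dusp1 window held the full TGACGTCA 143 bases before the start, whose letters also count as TGACG on each strand, and 1 more TGACG at 191 bases. The Zfp36 window held a CArG box 58 bases before the start and an EGR match, GCGGGGGCG, at 105 bases. The Jun window held none of these letters, which says nothing of the factors that bind there. Bases outside the 250 were not searched for any gene, so a motif not listed for a gene may lie further upstream. Of all 32851 mouse promoter windows of this length, 1.47% held a CArG box, 1.55% TGACGTCA, 17.8% TGACG, 6.75% TGANTCA, 4.70% GCGNGGGCG and 12.4% TATAAA. For Dusp1 and Zfp36 the RefSeq start lies 53656 and 1025 bases inside the outermost GENCODE start, so other starts of these genes are not covered.

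Over all cells, 3 genes carried most of the set and 7 were scarce. Ier2, Jund and Junb made up 43.4%, 26.8% and 21.4% of the set's UMIs in the knockdown library, and 36.8%, 35.1% and 17.2% in the control library. The 10 genes together had 154.8 CPM in the knockdown library and 188.2 CPM in the control library, a log2 ratio of knockdown over control of -0.28 (95% interval -0.32 to -0.24). It came to -0.18 with the gate shares of the control library and to -0.24 without dendritic cells, both within 1.2-fold. The 3 Jun genes summed to 77.9 CPM in knockdown cells against 105.1 CPM in control cells, a log2 ratio of -0.43, and the 5 most transient genes (Fos, Fosb, Egr1, Atf3 and Dusp1) to 5.92 CPM in knockdown cells against 8.38 CPM in control cells, a log2 ratio of -0.50. UMIs count the 3′ end of a transcript once, so these levels carry no length factor.

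A gene was called higher or lower past a 1.2-fold difference. Among the 3 members with at least 10 CPM in a library, 1 was lower (Jund) and 0 were higher. Of all 6743 genes at that level, 4.72% were lower and 3.8% higher, with a median log2 ratio of 0.03. With no minimum level, 8 of the 10 members were lower and 0 higher, where 23.2% of 16257 genes were lower and 17% higher; 4 of the 8 (Jun, Jund, Fos and Zfp36) had an interval that stayed below 0. Of the 3810 genes between 1 and 10 CPM, the range of 5 of those 8 members, 20.3% were lower and 11.6% higher. Low counts scatter widely, so a single low member past 1.2-fold carries little weight.

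**Figure D1:**
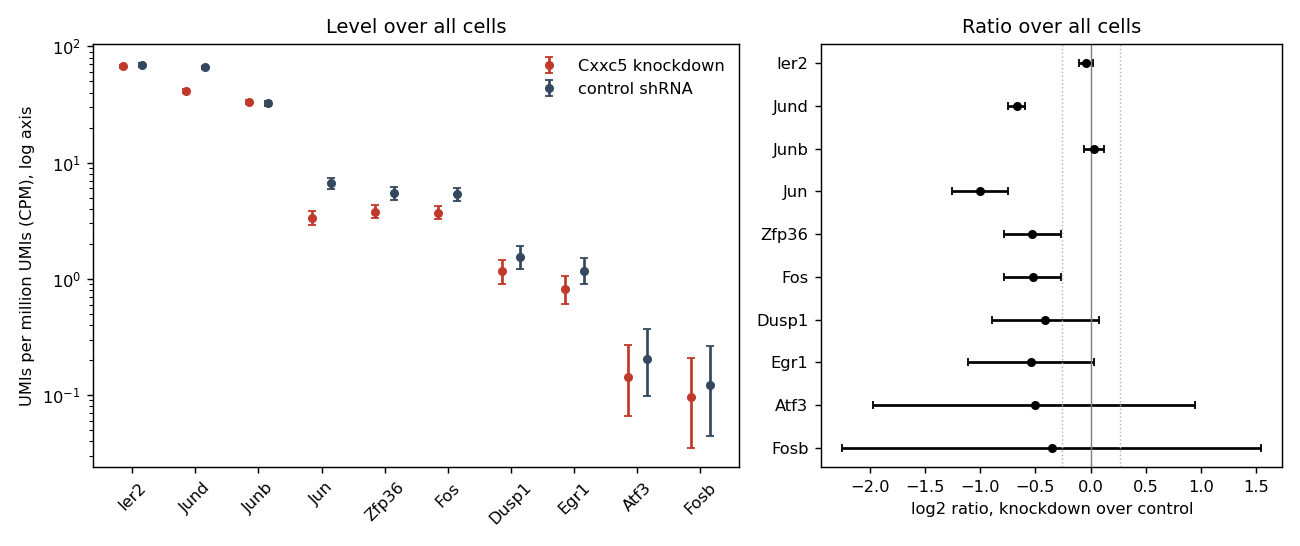
Left, the level of each gene in CPM on a log axis, Cxxc5 knockdown in red and control shRNA in blue, with 95% counting intervals; right, the log2 ratio of knockdown over control with its interval and dotted lines at 1.2-fold. Jund, Jun, Zfp36 and Fos sit left of 0 with their whole interval, and Ier2 and Junb sit at 0.

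Jund (ENSMUSG00000071076, GRCm38 chromosome 8, 70698949 to 70700616, plus strand, 1 exon) encodes the Jun protein that many resting cells keep at a steady level and that slows growth in several cell types. It had 2608 UMIs and 41.5 CPM in knockdown cells, against 3253 UMIs and 66.0 CPM in control cells, a log2 ratio of -0.67 (-0.75 to -0.60). This is a 1.59-fold lower level, and Jund was the 1 member of at least 10 CPM past 1.5-fold; of all genes of at least 10 CPM, 0.964% were lower and 0.311% higher by 1.5-fold or more. At a minimum of 50 CPM, which Jund and Ier2 pass, 3.81% of 2549 genes were lower and 2.43% higher by 1.2-fold. With each cell cut at random to 5000 UMIs, 17.8% of 5363 knockdown cells and 26.2% of 2797 control cells held a Jund UMI; without that step the shares were 30.3% and 52.6%, where the difference in depth adds to the gap. Under the alternatives tried over all cells its log2 ratio ranged from -0.76 to -0.49 and stayed past 1.2-fold.

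Jun (ENSMUSG00000052684, chromosome 4, 95049034 to 95052222, minus strand, 1 exon), the AP-1 subunit most tied to growth signals and JNK, had 209 UMIs and 3.32 CPM in knockdown cells, against 328 UMIs and 6.66 CPM in control cells. Its log2 ratio of -1.0 (-1.26 to -0.75) was the lowest of the 10, a 2.0-fold lower level. Junb (ENSMUSG00000052837, chromosome 8, 84974484 to 84978718, minus strand, up to 2 exons), a Jun protein that restrains proliferation of myeloid progenitors in mice, had 33.1 CPM in knockdown cells and 32.4 CPM in control cells, a log2 ratio of 0.03 (-0.06 to 0.13). The 3 Jun genes thus did not move together: Jun and Jund were lower in the knockdown library and Junb was within 1.2-fold.

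Fos (ENSMUSG00000021250, chromosome 12, 85473890 to 85477273, plus strand, up to 4 exons), the classic growth-factor-induced AP-1 subunit, had 233 UMIs and 3.71 CPM in knockdown cells, against 263 UMIs and 5.34 CPM in control cells, a log2 ratio of -0.53 (-0.79 to -0.27). Fosb (ENSMUSG00000003545, chromosome 7, 19302696 to 19310051, minus strand) had 6 UMIs in each library, and Atf3 (ENSMUSG00000026628, chromosome 1, 191170296 to 191218039, minus strand) 9 in the knockdown and 10 in the control library. Both are too scarce for a direction. Egr1 (ENSMUSG00000038418, chromosome 18, 34859823 to 34864984, plus strand) had 51 UMIs and 0.81 CPM in knockdown cells, against 58 UMIs and 1.18 CPM in control cells, with an interval that reached both sides of 0 (-1.11 to 0.03), and its log2 ratio was 0.15 with cells thinned to 5000 UMIs.

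Ier2 (ENSMUSG00000053560, chromosome 8, 84661331 to 84662852, minus strand, 1 exon) was the most abundant member and did not pass 1.2-fold, with 67.2 CPM in knockdown cells and 69.2 CPM in control cells and a log2 ratio of -0.04 (-0.11 to 0.02). Zfp36 (ENSMUSG00000044786, chromosome 7, 28376784 to 28380253, minus strand) had 237 UMIs and 3.77 CPM in knockdown cells, against 268 UMIs and 5.44 CPM in control cells, a log2 ratio of -0.53 (-0.79 to -0.27). Dusp1 (ENSMUSG00000024190, chromosome 17, 26505590 to 26562128, minus strand) had 73 UMIs and 1.16 CPM in knockdown cells, against 76 UMIs and 1.54 CPM in control cells, a log2 ratio of -0.41 whose interval crossed 0 (-0.89 to 0.07). Of the feedback pair, Zfp36 had an interval below 0 and Dusp1 did not. With the gate shares of the control library imposed on the knockdown library, Zfp36 came to -0.23, within 1.2-fold.

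Some members overlap a gene on the opposite strand, and whether counting used strand is not given in the sources used here. Junb overlaps Prdx2, which had 12157 UMIs in the knockdown and 9604 in the control library. Dusp1 overlaps Ergic1, with 2832 UMIs in the knockdown and 2263 in the control library, and Jun overlaps the antisense gene Junos, with 84 in the knockdown and 78 in the control library. If strand was not used, reads of such pairs cannot be told apart, so Junb, Dusp1 and Jun are uncertain to that extent. The antisense gene at Jund, Gm11175, had 4 UMIs in the knockdown and 3 in the control library.

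The level of the set differed more between gates than between libraries. The 10 genes summed to 588.5 CPM in the dendritic cell gate of the knockdown library and 697.8 CPM in that of the control library. The late neutrophil gate followed with 290.45 CPM in knockdown and 333.8 CPM in control cells. At the low end the mast cell and basophil gate had 132.2 CPM in knockdown and 141.2 CPM in control cells, and the protease-high progenitor gate 130.8 CPM in knockdown and 137.7 CPM in control cells. In both libraries the dendritic gate stood above the late neutrophil gate, and the late above the early neutrophil gate, with intervals of the ratio that excluded 0, while the early neutrophil and monocyte-macrophage gates could not be separated.

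Jund, Junb, Jun, Zfp36, Egr1, Atf3 and Dusp1 were highest in the dendritic cell gate in both libraries. Dendritic cells are the antigen-presenting cells that GM-CSF cultures are known to give. Here they were gated mainly on class II genes, and the gate held 79.4 marker UMIs per 10000 in knockdown and 106.0 in control cells. It also held monocyte-macrophage markers, at 5.29 per 10000 in knockdown and 7.33 in control cells. The monocyte-macrophage gate itself had 7.17 in knockdown and 7.21 in control cells. The dendritic cell gate is thus one of class II-high cells that also carry monocyte-macrophage transcripts. Jund reached 324.9 CPM in knockdown and 387.0 CPM in control dendritic cells, which is 8.32-fold (7.10 to 9.71) the level in the other knockdown cells and 6.49-fold (5.81 to 7.23) the level in the other control cells. Thinned to 5000 UMIs, 34 of 44 knockdown and 45 of 58 control dendritic cells held a Jund UMI. Jun had 48.3 CPM in knockdown and 52.1 CPM in control dendritic cells, 16.4-fold the other knockdown cells and 9.06-fold the other control cells. Zfp36 had 39.0 CPM in knockdown and 50.1 CPM in control dendritic cells, and Junb 66.8 CPM in knockdown and 106.4 CPM in control ones. Junb there could not be separated from its late neutrophil level in the knockdown library. Dusp1 had 5.57 CPM in knockdown and 6.26 CPM in control dendritic cells, and could not be separated from its late neutrophil level in either library. Egr1 rested on 6 UMIs in knockdown and 17 UMIs in control dendritic cells, and Atf3 on 3 of its 9 UMIs in the knockdown and 5 of its 10 in the control library. This gate lies under the 100-cell minimum for comparing libraries, so the values are given side by side only.

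Late neutrophils, gated on secondary granule genes such as Ltf and Camp, had the highest level of Ier2 and Fos, although for Fos in knockdown cells the monocyte-macrophage gate could not be separated (log2 ratio between the gates 0.36, -0.31 to 1.05). Ier2 had 127.9 CPM in knockdown and 136.5 CPM in control late neutrophils, which is 2.03-fold (1.85 to 2.23) the other knockdown cells and 2.18-fold (1.99 to 2.38) the other control cells. Fos had 10.0 CPM in knockdown and 13.9 CPM in control late neutrophils, 3.06-fold (2.13 to 4.31) the other knockdown cells and 3.07-fold (2.26 to 4.11) the other control cells. Dusp1 had 16 UMIs in knockdown and 25 in control late neutrophils. Jun had 3.17 CPM in knockdown late neutrophils, 0.95-fold the other knockdown cells (0.50 to 1.67), and 3.70 CPM in control ones, 0.53-fold the other control cells (0.30 to 0.88). Ier2 and Fos were not alone in this. Jund, Egr1, Dusp1 and Zfp36 also stood above the other cells in late neutrophils, with whole intervals above them in both libraries. For Dusp1 this was 4.03-fold (2.16 to 7.11) in knockdown and 5.09-fold (3.02 to 8.37) in control cells. For Jund it was 2.29-fold in knockdown and 2.01-fold in control cells. Junb did so in the knockdown library only (1.42-fold, 1.21 to 1.65), and Jun in neither.

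**Figure D2:**
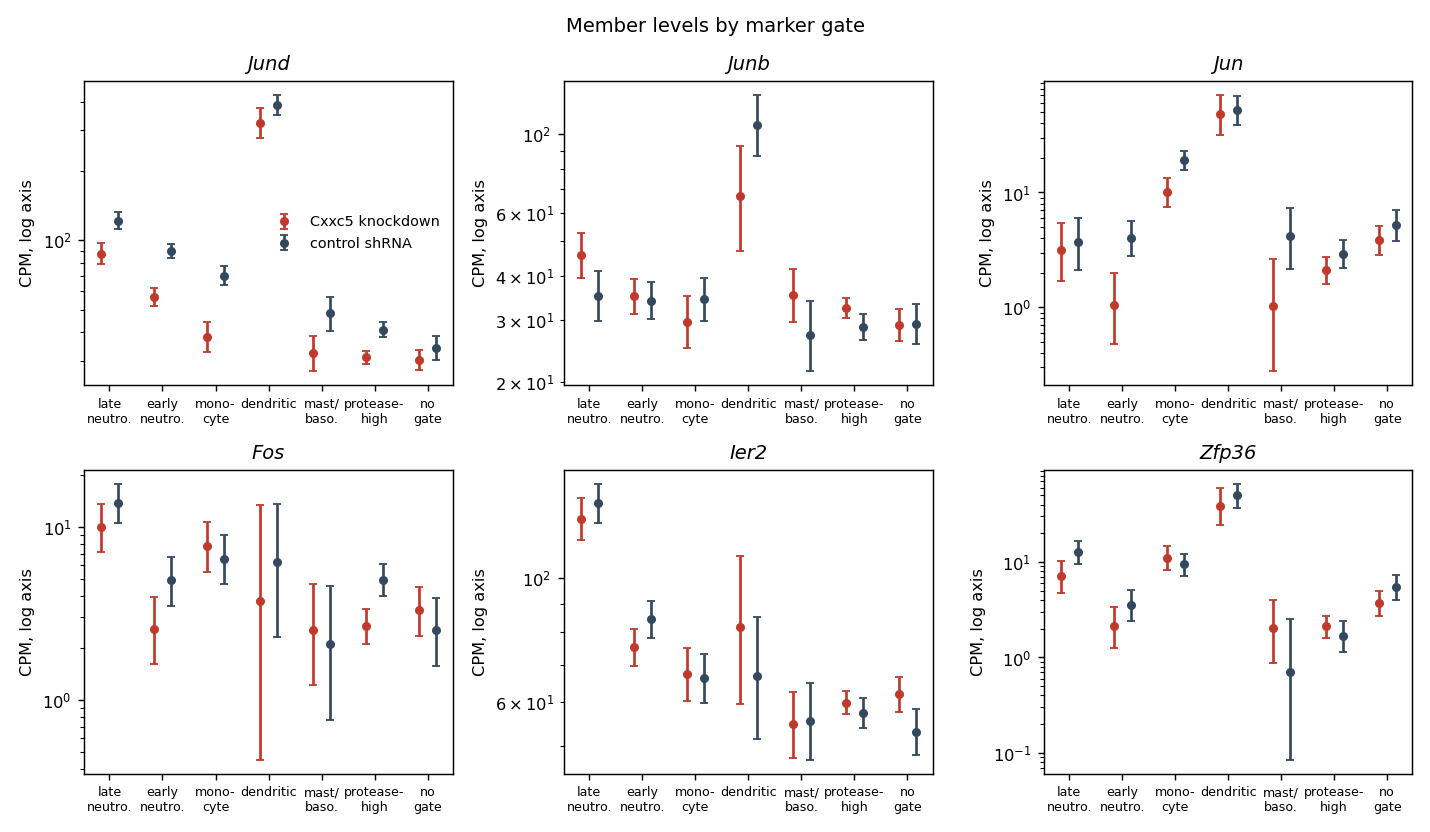
Level of 6 genes in each gate, in CPM on a log axis that differs between panels, Cxxc5 knockdown in red left of control shRNA in blue, with 95% counting intervals. Jund, Junb, Jun and Zfp36 peak in the dendritic cell gate, Ier2 and Fos in the late neutrophil gate.

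Free RNA in droplets can carry a transcript into cells that do not make it, and no gate is known to lack these genes. As a gauge, late neutrophil markers in the mast cell and basophil gate were at 0.189% of their late neutrophil level in both libraries, and in the monocyte-macrophage gate at 0.453% in knockdown and 0.716% in control cells. Monocyte-macrophage markers in the mast cell and basophil gate were at 6.87% of their own gate's level in knockdown and 10.9% in control cells. Dendritic markers in the late neutrophil gate were at 0.111% in knockdown and 0.105% in control cells. Jund in the mast cell and basophil gate was at 32.4 CPM in knockdown and 48.1 CPM in control cells, and the part of free RNA in the lowest gate levels was not tested.

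Jund was lower in knockdown cells in 5 of the 6 gates compared (the 5 named gates with at least 100 cells in each library, and the cells in no gate). The monocyte-macrophage gate had 38.0 CPM in knockdown and 70.3 CPM in control cells, a log2 ratio of -0.89 (-1.15 to -0.63). The early neutrophil gate had 56.7 CPM in knockdown and 90.0 CPM in control cells (-0.67, -0.84 to -0.50), and the late neutrophil gate 87.6 CPM in knockdown and 121.7 CPM in control cells (-0.47, -0.67 to -0.28). Each of these 3 gates had its whole interval below 0. In the mast cell and basophil gate the log2 ratio was -0.57, and in the protease-high progenitor gate it was -0.40, from 31.0 CPM in knockdown and 40.9 CPM in control cells. The cells in no gate had 30.3 CPM in knockdown and 34.2 CPM in control, a log2 ratio of -0.18 (-0.40 to 0.05), within 1.2-fold. The share of all genes of at least 10 CPM that were lower by 1.2-fold was 14.2% in the late neutrophil gate, 9.29% in the early neutrophil gate, 11.3% in the monocyte-macrophage gate, 13.6% in the mast cell and basophil gate, 4.28% in the protease-high progenitor gate and 6.03% among cells in no gate. The share higher was 9.8% in the early neutrophil gate, 10.6% in the monocyte-macrophage gate, 4.25% in the protease-high progenitor gate and 5.66% among cells in no gate.

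The dendritic cell gate, where Jund is highest, was 1.05% of knockdown and 2.23% of control cells, and the late neutrophil gate 8.46% of knockdown and 12.02% of control cells. With the gate shares of the control library imposed on both, the log2 ratio of Jund over all cells was -0.49, and with dendritic cells left out it was -0.61. In a bulk sum fewer cells of a type and less RNA per cell cannot be told apart, which is why the values within gates stand beside it. Depth differed between the libraries in every gate too, with a median of 7989 UMIs in knockdown and 11951 in control late neutrophils and of 10202.5 in knockdown and 16985 in control cells of the monocyte-macrophage gate; with cells thinned to 5000 UMIs, Jund was lower in 5 of 6 gates. With 1 library a group, a difference between the pools and an effect of the hairpin cannot be told apart.

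Jun was lower in knockdown cells in 5 of the 6 gates, 3 of them with an interval below 0. Among these gates it reached 10 CPM only in the monocyte-macrophage gate. The gate shares of all genes given above, for at least 10 CPM, do not cover it in the others. Over all cells, 20.3% of genes between 1 and 10 CPM were lower by 1.2-fold. The monocyte-macrophage gate, where its level was highest outside the dendritic cell gate, had 10.1 CPM in knockdown and 19.0 CPM in control cells, a log2 ratio of -0.91 (-1.43 to -0.42). Early neutrophils had 9 UMIs in knockdown and 33 in control cells, a log2 ratio of -1.94 (-3.18 to -0.84). The mast cell and basophil gate had 4 UMIs in knockdown and 12 in control cells, a log2 ratio of -2.04 (-4.12 to -0.31). Late neutrophils, with 13 UMIs in knockdown and 16 in control cells, were within 1.2-fold. Protease-high progenitors had 60 UMIs in knockdown and 54 in control cells, or 2.11 CPM in knockdown and 2.94 CPM in control cells, a log2 ratio of -0.48 whose interval crossed 0 (-1.03 to 0.08).

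Junb and Ier2 gave the contrast inside the same cells. Junb was lower in 0 of 6 gates and higher in 2: in late neutrophils it had 45.6 CPM in knockdown and 35.1 CPM in control cells, a log2 ratio of 0.38 (0.06 to 0.70), and in the mast cell and basophil gate 35.2 CPM in knockdown and 27.2 CPM in control cells, a log2 ratio of 0.37 (-0.04 to 0.79). In these gates 20.5% and 17.3% of all genes of at least 10 CPM were higher by 1.2-fold. Junb was lower in 1 of 6 gates with higher gate thresholds, in 1 of 6 with thinned cells and in 1 of 8 clusters, and higher in 1, 3 and 2 of them. Ier2 was within 1.2-fold in all 6 gates, with log2 ratios from -0.17 in early neutrophils to 0.22 in cells in no gate. In the late neutrophil, early neutrophil and monocyte-macrophage gates the interval of Jund lay below those of both Junb and Ier2.

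Fos and Zfp36 had ratios on both sides of 0, depending on the gate. For Fos this also depended on the gate thresholds: with lower ones it was lower in 4 of 5 gates and higher in 0. It was higher in 1 of 6 gates with higher thresholds, 3 of 6 with thinned cells and 2 of 8 clusters. Fos was lower in knockdown early neutrophils, at 2.59 CPM against 4.91 CPM in control ones (-0.92, -1.74 to -0.14), and in knockdown protease-high progenitors, at 2.68 CPM against 4.95 CPM in control ones (-0.89, -1.35 to -0.43). In the monocyte-macrophage gate it had 7.78 CPM in knockdown and 6.56 CPM in control cells, and among cells in no gate 3.29 CPM in knockdown and 2.54 CPM in control, both with intervals that crossed 0. Zfp36 was lower in knockdown late neutrophils, at 7.08 CPM against 12.7 CPM in control ones (-0.84, -1.55 to -0.17), while the monocyte-macrophage gate had 11.1 CPM in knockdown and 9.42 CPM in control cells, within 1.2-fold. Its highest ratio, 1.55 in the mast cell and basophil gate, rested on 8 UMIs in knockdown and 2 in control cells and had an interval from -0.78 to 4.82. Egr1 was listed with 0 UMIs in 804 knockdown early neutrophils and 8 UMIs in 462 control ones. With 3 UMIs as the floor in the knockdown gate this is 2.78-fold lower, which leaves out counting error in the control library. In the 5 other gates compared Egr1 had 2 to 18 UMIs in knockdown and 2 to 14 in control cells.

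**Figure D3:**
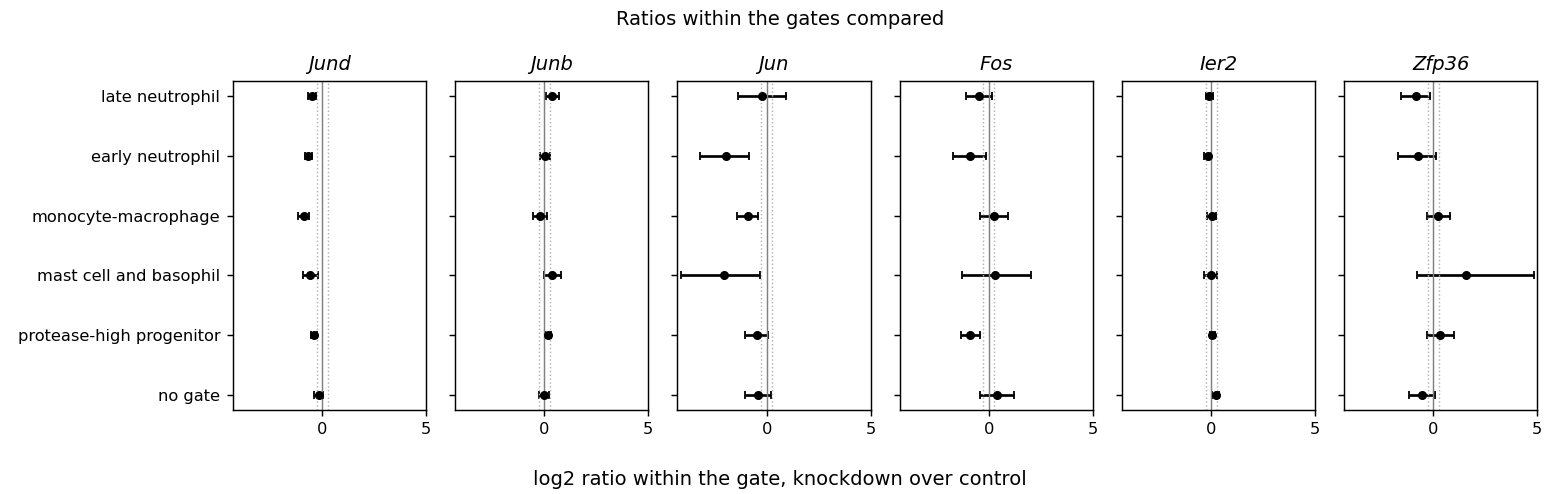
Log2 ratio of knockdown over control for 6 genes within the 6 gates compared, with 95% counting intervals and dotted lines at 1.2-fold. Jund lies left of 0 in every gate, Ier2 stays between the dotted lines, and Fos and Zfp36 lie on both sides.

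Within the neutrophil lineage the members were followed along maturation by the summed late markers per 10000 UMIs of a cell, in the cells of both neutrophil gates. Fos in knockdown cells had 2.09, 4.42, 6.42 and 13.5 CPM in the bins below 30, from 30 to 100, from 100 to 300 and from 300 upward, and in control cells 4.61, 5.67, 10.2 and 17.4 CPM. It was highest in the most mature bin of both libraries. Zfp36 had 2.39, 1.11, 3.95 and 10.1 CPM in knockdown and 3.08, 4.79, 8.84 and 16.5 CPM in control cells over the same bins. Ier2 climbed less, with 68.1, 101.2, 97.3 and 157.7 CPM in knockdown and 78.3, 100.2, 122.0 and 150.9 CPM in control cells. Fos, Zfp36 and Ier2 all had their highest level where granule genes such as Ltf were highest.

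Jund had 51.9, 74.6, 78.1 and 96.9 CPM in knockdown cells over the 4 bins, and 82.4, 109.4, 124.75 and 118.8 CPM in control cells, where the last 2 bins had overlapping intervals. It was highest in the top bin of the knockdown library. In the monocyte-macrophage gate, binned by monocyte markers from 4 to 6, from 6 to 10 and from 10 upward, it had 31.1, 37.7 and 63.3 CPM in knockdown and 48.8, 77.5 and 121.1 CPM in control cells. Jun in the same bins had 7.17, 8.46 and 23.9 CPM in knockdown and 15.2, 19.7 and 29.4 CPM in control cells. Jund was lower in knockdown cells in 7 of these 7 bins, each with an interval below 0, so its lower level was seen within each range of marker level. Jun was lower in 6 of 7 bins, 3 with an interval below 0. The share of all genes lower within these bins was not computed.

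**Figure D4:**
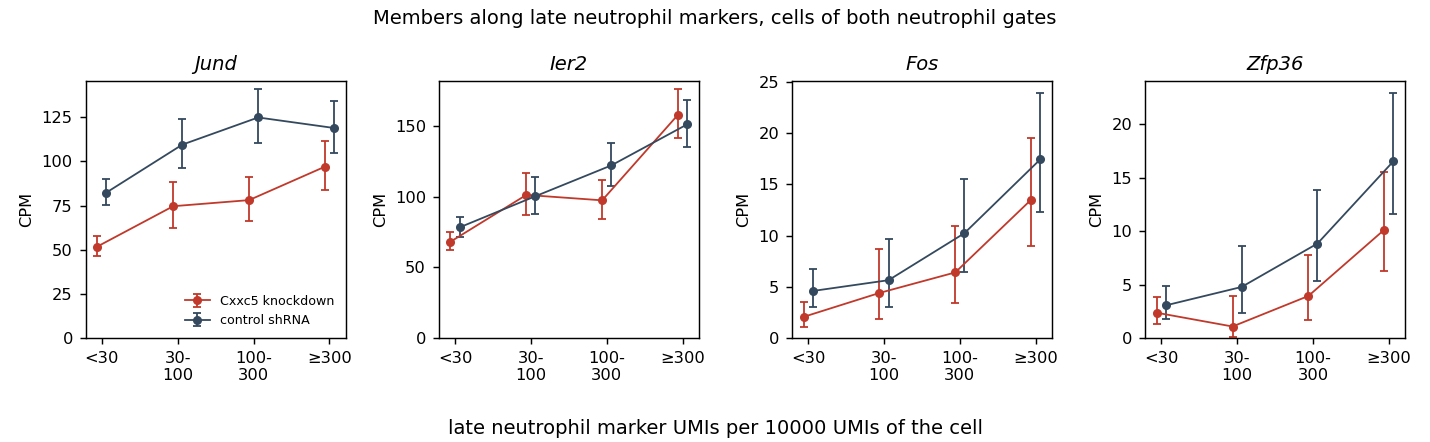
Level of Jund, Ier2, Fos and Zfp36 in CPM in 4 bins of late neutrophil marker UMIs per 10000, for cells of both neutrophil gates, Cxxc5 knockdown in red and control shRNA in blue with 95% counting intervals. Fos, Zfp36 and Ier2 are highest in the top bin of both libraries, and knockdown Jund lies below control Jund in all 4 bins.

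Whether a cell that holds 1 member also holds another was asked on cells thinned to 5000 UMIs, against the number expected if members were independent within each gate and library. At this depth 52.1% of knockdown and 55.5% of control cells held at least 1 member, 14.2% of knockdown and 18.4% of control cells at least 2, and 2.33% of knockdown and 3.72% of control cells at least 3. Cells with at least 3 members were 125 in the knockdown library, 1.31 times the expected number (1.09 to 1.56), and 104 in the control library, 1.24 times (1.01 to 1.5). Cells with at least 4 were 16 in the knockdown library, 2.19 times the expected number, and 18 in the control library, 1.99 times. Cells with at least 5 were 1 in the knockdown and 2 in the control library. Dendritic cells led, with 31.8% of knockdown and 34.5% of control cells holding at least 3 members, then late neutrophils with 8.29% of knockdown and 9.12% of control cells. Protease-high progenitors had 1.23% in knockdown and 1.16% in control cells.

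Pair by pair the excess was small among the pairs with enough cells to read. Of 45 pairs, 15 had at least 5 expected cells in both libraries, and over these the observed number was 1.09 times the expected one in knockdown and 1.13 times in control cells. Single pairs ranged from 0.76 to 1.43 in knockdown and from 0.77 to 1.37 in control cells. The pair of Jun and Jund reached 1.41 in knockdown and 1.37 in control cells, and 10 of the 15 pairs were above 1 in both libraries. None of the 15 had an interval above 1 in both. The other 30 pairs had fewer than 5 expected cells in a library. Together they had 68 cells observed against 44.3 expected in the knockdown library, and 44 against 34.1 in the control library, counting a cell once per pair. At least 2 of the most transient genes (Fos, Fosb, Egr1, Atf3 and Dusp1) were seen in 6 of 5363 knockdown cells and 3 of 2797 control cells. These genes are scarce, with at least 1 of them in 173 knockdown and 116 control cells. No expected number was computed for this count, so it does not show whether they occur together. Cells of a gate still differ in maturity, so the expected number is a reference point and not a model of independence between genes.

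**Figure D5:**
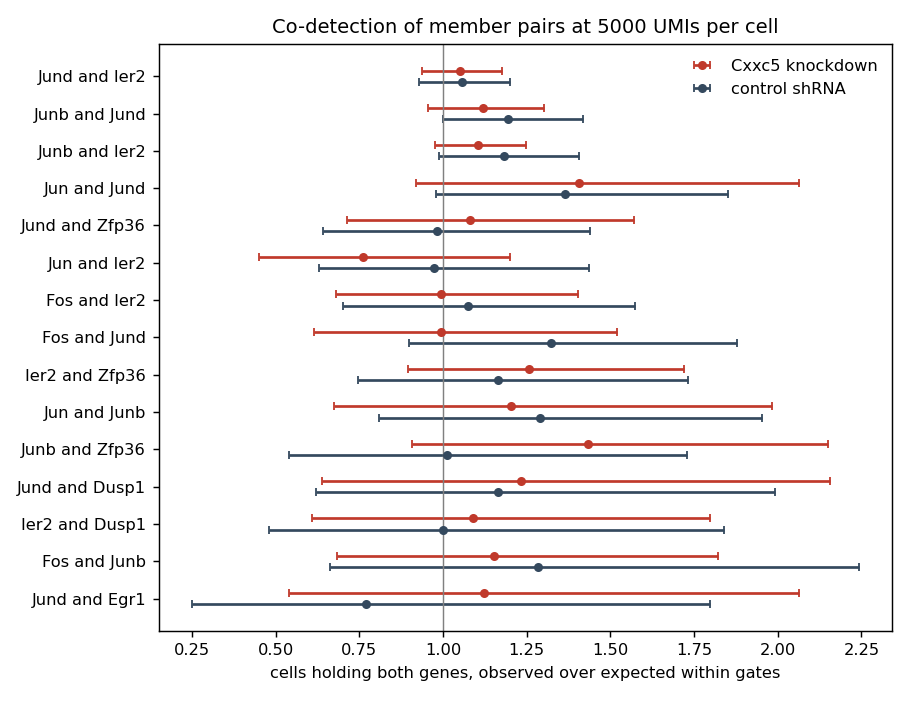
Cells holding both genes of a pair, observed over expected within gates, for the 15 pairs with at least 5 expected cells in both libraries, Cxxc5 knockdown in red above control shRNA in blue, with 95% counting intervals, at 5000 UMIs per cell. Most pairs lie a little right of 1 and their intervals reach 1.

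The genes that start, share or oppose this response were read from lists of related genes over all cells, at a minimum of 10 CPM in a library. Of 35 other immediate early genes 13 passed the minimum, 6 were lower and 0 higher, with a median log2 ratio of -0.05; of all genes at this level 4.72% were lower and 3.8% higher, with a median of 0.03, and these shares apply to each list below. Klf2, a Krüppel-like factor that restrains monocyte activation, had 16.2 CPM in knockdown and 33.2 CPM in control cells (-1.04), and Klf4, which drives monocyte differentiation, 6.03 CPM in knockdown and 10.0 CPM in control cells (-0.73). Klf6 had 14.2 CPM in knockdown and 21.9 CPM in control cells (-0.62). The other lower ones, named after their values were seen, were Ier3 (-0.46) and the antiproliferative genes Btg2 (-0.42) and Btg1 (-0.26). Gadd45b (0.18), Ier5 (0.06) and Rhob (0.05) had the highest ratios and were within 1.2-fold. In late neutrophils Klf2 had 65.2 CPM in knockdown and 91.9 CPM in control cells, and in the monocyte-macrophage gate Klf4 had 45.4 CPM in knockdown and 57.9 CPM in control cells.

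Of 24 components of the MAP kinase cascades and of serum response factor, 21 passed the minimum, 0 were lower and 2 higher, with a median of 0.02. Of the higher ones, Srf itself had 18.7 CPM in knockdown and 14.8 CPM in control cells (0.34). Braf was lowest at -0.21 (-0.35 to -0.07) and Mapk3 was at -0.09 (-0.16 to -0.02), both within 1.2-fold with an interval below 0. A count of 0 lower among 21 is near what 4.72% of all genes gives. Among 12 AP-1 partners 6 passed, and 1 was lower, Atf2, a Jun partner and JNK substrate, with 18.0 CPM in knockdown and 24.6 CPM in control cells (-0.45). Batf, Atf7, Mafg, Atf4 and Creb1 lay between -0.12 and 0.19.

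Among 17 further feedback phosphatases and decay factors 5 passed the minimum. Nfkbia, the inhibitor that NF-kappaB induces against itself, was lower, with 45.7 CPM in knockdown and 63.7 CPM in control cells (-0.48), and Dusp2, a nuclear MAP kinase phosphatase, was higher, with 16.6 CPM in knockdown and 13.7 CPM in control cells (0.27). Zfp36l2, the abundant relative of Zfp36, had 111.7 CPM in knockdown and 105.7 CPM in control cells (0.08). None of 10 AU-rich inflammatory mRNAs known as Zfp36 targets reached 10 CPM, so its function could not be read from them. Of 10 heat shock genes, a sign of handling, 8 passed, and 2 were higher, Hspd1 (0.29) and Hsph1 (0.30), with a median of 0.18. Of 8 housekeeping genes 2 were lower, Actb (-0.31) and B2m (-0.33), with a median of -0.01. The part of heat shock and of these shifts in the members' ratios was not tested.

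Genes whose level followed the summed members from cell to cell, after the mean of each gate was taken out, did so weakly. Of 4552 genes ranked over 5363 knockdown and 2797 control cells thinned to 5000 UMIs, the 8 highest were Tmsb4x, Cd52, S100a6, Cotl1, Ftl1, Lcn2, Card19 and Slfn2. Tmsb4x, an actin-binding peptide, led with a Pearson correlation of 0.090 in knockdown and 0.140 in control cells, and the 99th percentile of all genes was 0.046. These cells share a library, and correlations of this size in sparse counts are given as a description and not as a finding.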

How the data were processed

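Messenger RNA was counted with droplet 3′ single-cell sequencing (10x Chromium v2 chemistry) in 1 pooled library per group. The deposited values are raw UMI counts per gene and cell, 62910229 UMIs over 6015 barcodes in the knockdown and 49333454 over 2925 in the control library. Per the submitters' processing notes they were made with Cell Ranger 2.1.1 and mm10; the annotation release and the use of strand are not given in the sources used here. Cells with at least 500 genes and at most 10% mitochondrial UMIs were kept, which removed 11 knockdown and 13 control barcodes; doublets were kept, and removed in an alternative.

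Levels are UMIs summed over cells per 1000000 UMIs (CPM), with exact Poisson intervals for levels, exact conditional intervals for ratios and Clopper-Pearson intervals for shares, all for counting error only. PCR duplicates are removed by UMIs. With 1 library per group no test across samples exists; a gene is called past 1.2-fold. Cells of 5000 or more UMIs were thinned to 5000 for shares and co-detection, leaving out 641 knockdown and 115 control cells. On simulated libraries with folds of 0.5 and 2 in 50 genes each, the median log2 ratios were -1.01 and 1.01. The intervals held the planted value in 94% of these genes. With folds of 0.67 and 1.5, also in 50 genes each, they held it in 92%. The simulated counts were Poisson draws from the control library's profile, the model that the intervals assume. This checks the calculation only, since spread between cells or pools was not simulated.

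Gates used marker UMIs per 10000: at least 100 for late and for early neutrophil, 4 for monocyte-macrophage, 10 for dendritic cell, which went before monocyte-macrophage, and 5 for mast cell and basophil, each with at least 3 marker UMIs, and 150 of the granulocyte-monocyte progenitor markers for protease-high cells in no other gate. The members and gene lists were chosen with earlier results of these data known, and the gate thresholds after marker sums, though no member's values, were seen. All members are named; of each related list, the 3 highest and 3 lowest ratios; and the 8 genes most correlated with the members among those of at least 20 CPM. The values of 1 gene of a related list are not reported here. Gene positions are from GENCODE and promoters from RefSeq, both GRCm38. Python 3.11.15, numpy 2.4.6, scipy 1.17.1, pandas 2.3.3 and scanpy 1.11.5 were used.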

Additional observations from a re-analysis of the deposited data

Results flagged for a closer look

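In 3 cases a member was lower by 1.2-fold in the knockdown cells of one gate and higher by 1.2-fold in those of another, with 95% counting intervals of the ratios that did not overlap; other pairs of gates past 1.2-fold in opposite directions had overlapping intervals. None of these differences was tested across samples, and many pairs of gates were compared. Egr1 in early neutrophils had 0 UMIs in the knockdown and 8 in the control library. With 3 UMIs as the floor this is a log2 ratio of -1.48, 2.78-fold lower, which leaves out counting error in the control library. The upper 95% limit of the Egr1 log2 ratio there was -0.83. In late neutrophils its log2 ratio was 0.44, from 18 UMIs in knockdown and 14 in control cells, and in the monocyte-macrophage gate it was 0.97, from 11 UMIs in knockdown and 7 in control cells; both intervals crossed 0.

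Fos in protease-high progenitors had a log2 ratio of -0.89, from 76 UMIs in knockdown and 91 in control cells. Among cells in no gate it was 0.38, from 40 UMIs in knockdown and 21 in control cells, with an interval from -0.42 to 1.21. This interval nearly touched that of the protease-high progenitors. With lower gate thresholds Fos was higher in 0 of 5 gates.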

How the results depend on the processing

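No paired analysis was possible because each group is 1 library and carries no replicate number. Of 142 alternative values 120 stayed as reported, 19 moved and 3 changed sign from a ratio past 1.2-fold, all of scarce genes. With cells thinned to 5000 UMIs the log2 ratio was 0.65 for Fosb and 0.15 for Egr1. It was 0.072 for Atf3 with the gate shares of the control library. Changes of sign in ratios within 1.2-fold were not counted: Ier2 came to 0.0098 with those gate shares, and Junb to -0.0011 with the median ratio of all genes set to 1. With those gate shares the 10 genes summed gave -0.18, Jun -0.69, Jund -0.49 and Zfp36 -0.23, the sum and Zfp36 then within 1.2-fold; the causes of these shifts were not tested. As a mean over cells the sum gave -0.33 and Jund -0.76, thinned Jund also gave -0.76, and without dendritic cells, an alternative chosen after seeing the data, the sum gave -0.24. With no minimum level 8 members were lower, against 1 at 10 CPM. Co-detection in control cells was 1.25 times the expected number when gates were ignored. At 8000 UMIs per cell, in 4487 knockdown and 2427 control cells, 4.39% of knockdown and 8.08% of control cells held at least 3 members, and with control gate shares 3.03% of knockdown cells did at 5000 UMIs. Jund was lower in 5 of 5 gates with lower thresholds and 6 of 6 with higher ones. It was lower in 7 of 8 clusters made without the members. Ier2 was past 1.2-fold in neither direction except in thinned cells, with 1 gate lower and 1 higher. Fos was lower in 4 of 5 gates with lower thresholds and higher in 0. Depth limits Fosb, Atf3, Egr1 and Dusp1, with at most 76 UMIs per library, and setting the median gene to 0 would move all ratios by -0.03.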
